A study of Mus musculus with 6 samples.

Results

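The cytosolic chaperonin CCT, also called TRiC, is a stacked ring of related subunits that closes over unfolded proteins and folds them with the energy of ATP. Actins and tubulins are its best known substrates, and WD-repeat proteins of the cell cycle machinery are folded there too. Each subunit holds a fixed position in the ring and has its own gene, except that the zeta position can be filled by the product of Cct6a or of its testis-enriched paralog Cct6b. Poly(A) tails are the stretches of adenosine at the 3′ end of mRNAs, and their length is followed in germ cells because spermatids store many mRNAs for later use.

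The CCT transcripts were taken as all contigs whose gene symbol in the deposited tail table, ignoring case, was Tcp1, Cct2, Cct3, Cct4, Cct5, Cct6a, Cct6b, Cct7 or Cct8. A contig is 1 annotated transcript to which reads were assigned. The rule found 15 contigs of 9 genes among 12114 contigs in all, of which 11517 were annotated transcripts and 597 repeat elements. These 15 contigs held 13069 reads over the 6 samples. All 9 genes were represented, each by a main contig, the one with most reads over all samples.

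The samples were germ cells of wild-type adult C57BL/6J/B6 male mice, with no allele or agent that differed between groups. Cells were stained with Hoechst and propidium iodide and sorted by DNA content and scatter into a gate enriched for pachytene and diplotene spermatocytes (P/D spermatocytes, 3 samples) and a gate of round spermatids (RS, 3 samples). Each sample was a pool of mRNA from 3 mice and was read by nanopore direct RNA sequencing, in which a native RNA strand passes through a pore, so that 1 read stands for 1 molecule and carries its own tail. By the study's microscopy both gates also held other cells, far more of them in the P/D gate, so the values come from enriched and not pure populations. Both cell types were sorted from the same mice, so P/D and RS pools shared animals, while no source used here says which pools did. All P/D samples shared 1 multiplexed library and all RS samples a second one, and a difference between libraries or runs cannot be told apart from a difference between cell types.

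Sequencing depth ran from 244004 to 474688 reads per sample, and 1686 to 3038 of these reads were CCT reads. CCT transcripts made up 0.698%, 0.835% and 0.750% of annotated reads in P/D spermatocytes and 0.570%, 0.645% and 0.571% in RS. Summed library-scaled reads (CPM) of pachytene and diplotene markers, with 7 of 8 genes listed, were 3733 to 4392 in P/D spermatocytes and 2609 to 2745 in RS. Leptotene and zygotene markers, with 2 of 6 genes listed, were at 172 to 261 CPM and 89.4 to 178 CPM. Round spermatid markers, with all 8 genes listed, were at 163 to 357 CPM in P/D spermatocytes and 3052 to 3136 CPM in RS, and elongating spermatid markers (7 of 7 listed) at 1860 to 2448 CPM and 23750 to 29740 CPM. That last list holds protamine and transition protein genes, Odf1, Smcp and Gapdhs. The study states that the mRNAs of all of these but Gapdhs, which it does not mention, are made in RS and translated later. Their level therefore does not measure elongating cells in the RS gate. The summed Sertoli cell list stayed at 0 to 8.80 CPM, the spermatogonial list at 0 to 22 CPM and the Leydig cell list at 3.44 to 28.5 CPM in every sample, with no contig listed for Sox9, Wt1, Zbtb16, Kit, Cyp17a1 or Star, and no gene of the peritubular, vascular or macrophage lists had a contig. The spermatocyte and spermatid markers move with every comparison given here, and their part in the results was not tested. In such bulk samples fewer cells of a type and less RNA per cell cannot be told apart.

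The 3′ ends of the transcripts are shown first, because the tail is added there. For each contig the last 45 nt were searched on the sense strand for AATAAA, the canonical polyadenylation signal, and then for ATTAAA, its most common variant. Windows of 30 bases around the signal, for 6 of the genes and read from GENCODE transcripts and equal to the GRCm38 genome, are given with the signal in capitals.
Tcp1, long end, chr17:12925031-12925060, plus strand: ctctaactcagaAATAAAtctgcctgcctt
Tcp1, short end, chr17:12924526-12924555, plus strand: tgggtgtctcacATTAAAgtacagcaagct
Cct2, chr10:117051007-117051036, minus strand: actgtgtattaaAATAAAaatccagttact
Cct3, chr3:88321736-88321765, plus strand: ttgcttccaatgATTAAAtctaagtcattt
Cct5, chr15:31590817-31590846, minus strand: tgtagatgctggAATAAAagcagctgtctg
Cct6b, chr11:82719261-82719290, minus strand: taactgttagaaAATAAAggtagtgcatgt
Cct8, chr16:87483337-87483366, minus strand: tgtatttaaataAATAAAcatgattttttt

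Of the 9 main contigs, 6 held AATAAA and 1, that of Cct3, held only ATTAAA. In the main contigs of Cct4 and Cct7 these letters were not in the window. Over the 11344 annotated contigs with a sequence, 60.5% held AATAAA and 14.5% ATTAAA without AATAAA. In the last 200 nt, the AU-rich pentamer ATTTA occurred 3 times in Cct2 and 2 times in Cct8, once each in Cct3, Cct5, Cct6a and Cct7, and not in Cct4, Cct6b or Tcp1, against 30.8% of all contigs that held it at least once. The cytoplasmic polyadenylation element TTTTAT occurred once in Cct6b and once in Tcp1 (18.4% of all contigs), and the Pumilio element TGTANATA in none of the 9 (6.05% of all contigs). These matches describe letters and not sites of action.

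At their 5′ ends, 8 of the genes had an entry among the RefSeq promoters (GRCm38.p6), in 10 windows, and Cct4 had none. On either strand, the GC box GGGCGG stood in the promoters of 7 of these genes, against 35.7% of all promoters, and the CCAAT box in 5, against 37.4%. The heat shock element GAANNTTC was found for Cct2 alone among them (7.86% of all promoters), while TATAAA (13.6% of all) and the cAMP response element TGACGTCA (1.79% of all) were in no CCT window.

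The first comparison asked whether CCT transcripts lengthened their tails between P/D spermatocytes and RS. Tails were longer in RS for 7 of the 9 main contigs, those of Tcp1, Cct3, Cct4, Cct5, Cct6a, Cct6b and Cct7, by 30.7 to 60.4 nt. The Cct8 tail was shorter, at -30.7 nt, and the Cct2 difference of 9.09 nt did not pass the test. The test was limma on the mean tail per sample over all annotated contigs with enough reads, and a call is a Benjamini-Hochberg adjusted p below 0.05. Among all 6990 contigs tested, 54.2% were called longer and 1.69% shorter, with a median difference of 37.4 nt. The median over the 9 main contigs was 44.8 nt. Of all 15 CCT contigs, 13 passed the read filter, 11 of these were longer, 1 was shorter and 1 was not called. Lengthening of most CCT transcripts thus went with that of the tested transcripts as a whole, and their count is not read as a property of the chaperonin.

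**Figure D1:**
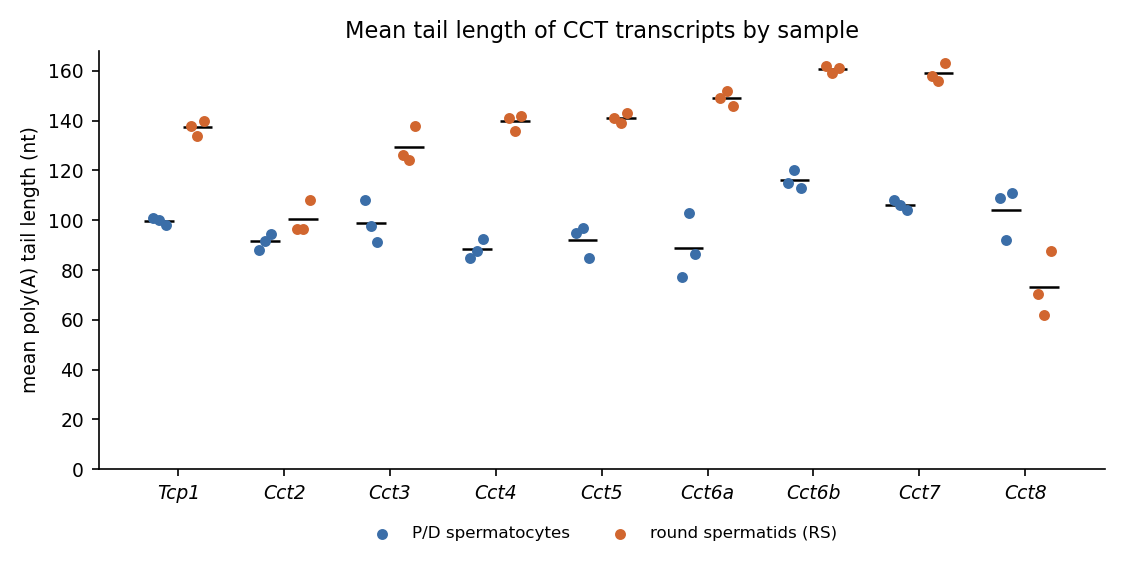
Mean poly(A) tail length in nt (vertical axis, from 0) of the main contig of each CCT gene in each of the 3 P/D and 3 RS samples. Points are samples and bars their means. RS points lie above all P/D points for the genes called longer, just above them for Cct2, whose difference was not called, and below them for Cct8. How many of all contigs separate in this way, in tails or in reads, was not computed. Separation of the groups, here and in the text, is therefore not read as a trait of these genes.

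Tcp1 encodes the alpha subunit and was by far the most abundant member. Its mean tail was 101, 100 and 98 nt in P/D spermatocytes and 138, 134 and 140 nt in RS. The groups did not overlap and differed by 37.6 nt (SE 5.26, limma adjusted p = 0.0016).

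Cct4 and Cct5 encode the delta and epsilon subunits. Cct4 tails averaged 85, 87.5 and 92.4 nt in P/D spermatocytes and 141, 136 and 142 nt in RS, a difference of 51.2 nt (SE 5.53, limma adjusted p = 0.00066). Cct5 tails averaged 95, 96.8 and 84.8 nt and then 141, 139 and 143 nt, a difference of 48.7 nt (SE 5.98, limma adjusted p = 0.00099). In both genes the RS samples lay within a few nt of each other and above every P/D sample.

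Cct7 encodes the eta subunit. The means were 108, 106 and 104 nt in P/D spermatocytes and 158, 156 and 163 nt in RS. The difference was 53.4 nt (SE 5.40, limma adjusted p = 0.00059). Cct3, the gamma subunit gene, had means of 108, 97.7 and 91.1 nt and then 126, 124 and 138 nt. Its difference of 30.7 nt (SE 7.34, limma adjusted p = 0.013) was the smallest of the 7 called longer, and the groups did not overlap.

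At the zeta position, Cct6a tails averaged 77.0, 103 and 86.6 nt in P/D spermatocytes and 149, 152 and 146 nt in RS, which gave the widest difference among the main contigs, 60.4 nt (SE 8.09, limma adjusted p = 0.0013). The P/D samples of Cct6a were more spread out than the RS samples, and no RS sample reached down to the P/D values. The main contig of Cct6b averaged 115, 120 and 113 nt and then 162, 159 and 161 nt (44.8 nt, SE 5.42, limma adjusted p = 0.00094). Its second contig went from 106, 117 and 121 nt to 169, 175 and 178 nt (59.6 nt, SE 6.51, limma adjusted p = 0.00068). Cct6b tails were thus the longest of the family in RS, at 161 ± 1.17 nt (SD, n = 3) for the main contig and 174 ± 4.24 nt (SD, n = 3) for the second. The main Cct6b contig and the next in order, Cct7 at 159 ± 3.58 nt (SD, n = 3), differed by less than the spread of the Cct7 samples.

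Cct8 encodes the theta subunit and lies on the minus strand at chr16:87483326-87495873. Its mean tail was 109, 92.1 and 111 nt in P/D spermatocytes and 70.3, 61.8 and 87.6 nt in RS. Every RS sample lay below every P/D sample. The difference was -30.7 nt (SE 9.29, limma adjusted p = 0.031), from 104 ± 10.3 nt to 73.2 ± 13.1 nt (SD, n = 3 each). The means rest on 61, 104 and 75 reads in P/D spermatocytes and 41, 64 and 45 in RS. Without P/D replicate 1, P/D replicate 3, RS replicate 1 or RS replicate 2 the difference was -28.2, -27.3, -29.3 and -25.0 nt and no longer passed (limma adjusted p = 0.072, 0.076, 0.088 and 0.086), and without P/D replicate 2 or RS replicate 3 it was -36.6 and -37.9 nt and passed. The call was also lost with no read minimum (adjusted p = 0.051) and with the methods' equal-variance test after adjustment (adjusted p = 0.065), at the same difference.

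Cct2 encodes the beta subunit and lies on the minus strand at chr10:117051001-117063814. Its mean tail was 88.2, 91.6 and 94.6 nt in P/D spermatocytes and 96.5, 96.6 and 108 nt in RS. The RS values began just above the P/D values. The difference of 9.09 nt (SE 6.18, limma adjusted p = 0.26) was not called in any alternative fit, where it ranged from 5.12 to 14.5 nt.

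The second contigs repeated the behaviour of the main ones. The second Cct3 contig, which ends 1 nt from the first, was longer in RS by 30 nt (SE 5.78, limma adjusted p = 0.0055). The Tcp1 contigs with the short 3′ end were longer by 36.4 nt (SE 5.77, limma adjusted p = 0.0025) and, for the one annotated as retaining an intron, 40.6 nt (SE 8.02, limma adjusted p = 0.0061). The 2 further Cct7 contigs had 5 and 4 reads in all and were not tested.

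Splitting the reads into tail classes showed where the means came from. P/D spermatocytes held most CCT reads in the class of 30 to 120 nt, from 58.5% for Cct6b to 76.2% for Cct4 (means of 3 samples). In RS the class of 120 to 210 nt, around the 150 nt typical of spermatids, was called higher for the same 7 main contigs (limma on the percentage per sample) and lower for none. Over all 6990 contigs 53.0% were called higher and 2.37% lower, with a median difference of 30.1 percentage points, against 38.9 over the CCT main contigs. Among all 13 tested CCT contigs 11 were called higher.

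Among the main contigs Cct7 showed the fullest transfer, from 30.1%, 33.8% and 27.4% of reads in this class to 78.6%, 80.7% and 77.8% (48.6 percentage points, SE 4.28, limma adjusted p = 0.00051). The second Cct6b contig moved by 50.4 percentage points, from means of 30.3% to 80.8%. Cct3 moved least among those called, from 20.3%, 19.0% and 16.9% to 43.9%, 40.3% and 46.6% (24.9 percentage points, SE 4.29, limma adjusted p = 0.0038), so that 50% of its RS reads still had tails of 30 to 120 nt. Reads with tails under 30 nt averaged at most 2.79% of a main contig in P/D spermatocytes, with 6.73% in a single Cct8 sample the highest value, and in RS they averaged 0% for 6 of the 9 main contigs. Cct8 had 4.17% in RS, all of it from the second sample at 12.5%.

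For Cct2 the class of 120 to 210 nt held 22.2%, 21.4% and 22.9% of reads in P/D spermatocytes and 13.0%, 19.5% and 30.3% in RS. The RS values lay on both sides of the P/D values, and the difference of -1.24 percentage points (SE 5.72, limma adjusted p = 0.87) changed sign with the class bounds and without RS replicate 1, where it was 2.74. For Cct8 the same class held 29.5%, 18.3% and 29.3% and then 12.2%, 4.69% and 26.7%, with overlapping groups and a difference of -11.2 percentage points (SE 7.24, limma adjusted p = 0.24). Tails of 210 nt and above made up 8.20% to 9.33% of Cct8 reads in P/D spermatocytes and 0% to 2.22% in RS, and tails of 30 to 120 nt 60.7% to 66.3% and 71.1% to 87.8%.

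**Figure D2:**
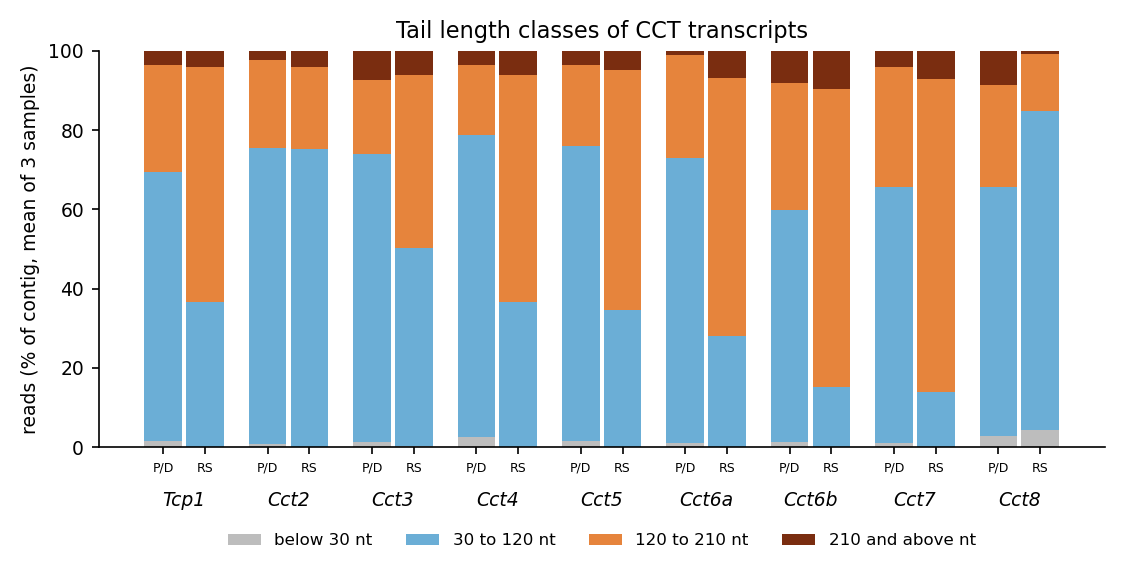
Percentage of reads of each CCT main contig (vertical axis, mean of 3 samples) in 4 tail length classes, with P/D spermatocytes at the left and RS at the right of each pair. The class of 120 to 210 nt grows from 30.4% to 79.0% for Cct7, stays at 22.2% and 20.9% for Cct2 and is 25.7% and 14.5% for Cct8.

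The quartiles of single reads told the same for these transcripts. The Cct8 median tail was 97.0, 70.2 and 88.4 nt in P/D spermatocytes and 53.5, 56.1 and 61.1 nt in RS. Its lower quartile was 57.4, 41.9 and 59.6 nt and then 47.3, 40.8 and 46.4 nt, with overlapping groups. Its upper quartile went from 149, 128 and 153 nt to 84.5, 72.8 and 131 nt, so that the third RS sample kept more long tails than the others. For Cct2 the lower quartile was 52.8, 53.0 and 60.6 nt and then 68.9, 65.6 and 68.6 nt, while the upper quartile was 111, 119 and 120 nt and then 105, 116 and 139 nt. The lower quartile of Cct2 thus lay higher in every RS sample, with no shared shift of the upper quartile. The shortest tails overlapped. Reads at or below 50 nt made up 22.2%, 22.4% and 4.82% in P/D spermatocytes and 6.11%, 6.92% and 6.21% in RS.

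**Figure D3:**
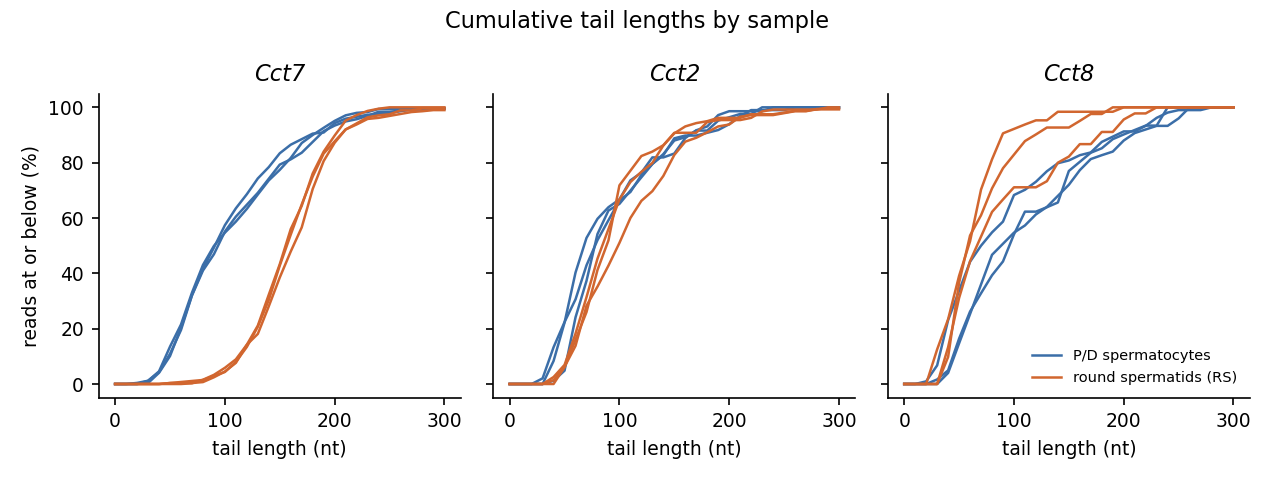
Cumulative percentage of reads (vertical axis) at or below each tail length in nt (horizontal axis) for Cct7, Cct2 and Cct8, with 1 line per sample. RS lines lie to the right of the P/D lines for Cct7 up to 200 nt and cross them for Cct2. For Cct8 all RS lines lie to the left of all P/D lines from 60 to 110 nt, and lines of the second P/D sample and of RS samples cross below 60 nt and at 120 to 130 nt.

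The second comparison was of accumulation, that is the reads of a contig scaled by library size and TMM factors. Of the 9 main contigs, 6 were lower in RS, those of Tcp1, Cct3, Cct4, Cct6a, Cct7 and Cct8, and 1, Cct2, was higher. Cct5 and Cct6b were not called. Among 6005 contigs tested with edgeR's quasi-likelihood test, 30.8% were called lower and 32.6% higher (median log2 fold change -0.03). The median over the 9 main contigs was -0.35. Of all 13 tested CCT contigs 6 were lower, 1 was higher and 6 were not called. Except for Cct8 and Cct6a the differences were small, between 1.22-fold and 1.32-fold.

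**Figure D4:**
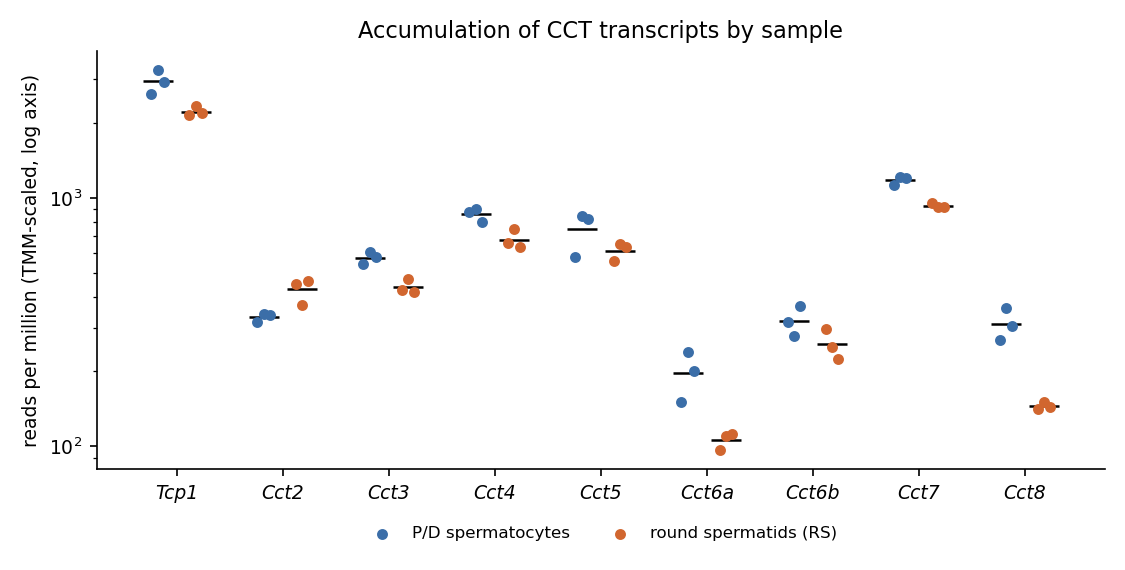
Library-scaled reads (CPM with TMM factors, vertical log axis) of the main contig of each CCT gene in each of the 3 P/D and 3 RS samples. Points are samples and bars their means. Cct8 and Cct6a stand clearly lower in RS and Cct2 higher.

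Cct8 fell most. It had 269, 361 and 306 CPM in P/D spermatocytes and 141, 150 and 144 CPM in RS, which did not overlap. Its log2 fold change was -1.11 (SE 0.18, edgeR adjusted p = 7.3e-07), a 2.16-fold decrease. Cct6a followed, with 150, 239 and 200 CPM and then 96.4, 110 and 112 CPM, a log2 fold change of -0.90 (SE 0.21, edgeR adjusted p = 0.00033). Both were called lower in every alternative fit, between -1.24 and -0.91 for Cct8 and between -1.09 and -0.70 for Cct6a.

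Tcp1 had 2628, 3282 and 2940 CPM in P/D spermatocytes and 2149, 2347 and 2190 CPM in RS for its main contig (log2 fold change -0.40, SE 0.09, edgeR adjusted p = 0.00023). With the reads of all its contigs summed it was -0.23 (SE 0.09, edgeR adjusted p = 0.027). Cct7 had 1127, 1211 and 1207 CPM and then 951, 920 and 920 CPM (-0.35, SE 0.11, edgeR adjusted p = 0.0042). In neither main contig did the groups overlap.

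Cct4 had 876, 905 and 803 CPM in P/D spermatocytes and 658, 747 and 635 CPM in RS, with a log2 fold change of -0.34 (SE 0.12, edgeR adjusted p = 0.011). Without P/D replicate 2, RS replicate 1 or RS replicate 3 it was -0.29, -0.28 and -0.23 and was not called (edgeR adjusted p = 0.052, 0.060 and 0.14). Cct3 had 541, 604 and 579 CPM and then 424, 471 and 418 CPM, with a log2 fold change of -0.39 (SE 0.13, edgeR adjusted p = 0.0087). Without RS replicate 3 it was -0.30 (edgeR adjusted p = 0.082), and with both Cct3 contigs summed it was -0.25 and not called (edgeR adjusted p = 0.072). DESeq2 did not call these 2 contigs (adjusted p = 0.097 for Cct4 and 0.084 for Cct3).

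Cct5 had 577, 846 and 820 CPM in P/D spermatocytes and 555, 651 and 635 CPM in RS. The first P/D sample lay within the RS range, and the log2 fold change was -0.29 (SE 0.13, edgeR adjusted p = 0.051). Without P/D replicate 1 it was -0.48 and passed (edgeR adjusted p = 0.0022).

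Cct2 was the member that rose, from 317, 340 and 338 CPM to 451, 372 and 463 CPM. The groups did not overlap, and the log2 fold change was 0.36 (SE 0.15, edgeR adjusted p = 0.031), a 1.28-fold increase. The call was lost with DESeq2 (0.40, adjusted p = 0.086) and with no count filter (0.31, edgeR adjusted p = 0.078). It was lost too without P/D replicate 1, P/D replicate 3, RS replicate 1 or RS replicate 3, at log2 fold changes of 0.29, 0.35, 0.35 and 0.36 (edgeR adjusted p = 0.14, 0.070, 0.062 and 0.064).

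The smaller changes also depended on the scaling. With contigs of at least 10 counts in every sample, the log2 fold changes of all shared contigs moved by a median of 0.20. Cct8, Cct6a and Cct2 kept their calls there, while Tcp1, Cct3, Cct4 and Cct7 did not (log2 fold changes -0.21, -0.19, -0.14 and -0.15). A change of scaling moves all contigs nearly alike, so relative to that shift the main contigs keep nearly their values by construction. This gives no support to the calls that were lost.

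Levels of the main contigs were compared per kilobase of contig. Tcp1 stood highest in both cell types, at 1206 CPM per kb in P/D spermatocytes and 911 in RS. Below it came Cct7 (484 and 381), Cct5 (403 and 331), Cct4 (347 and 274) and Cct3 (291 and 221). Cct2 went from 169 to 219, against 179 and 144 for the main Cct6b contig. With its second contig added Cct6b came to 280 and 219, so that Cct2 did not pass it as a gene. Cct8 went from 130 to 60.5 CPM per kb and Cct6a, the lowest, from 80 to 43.2. The highest and lowest main contigs differed 15.1-fold in P/D spermatocytes and 21.1-fold in RS on this scale. Without the division by length, which a read of a whole molecule does not strictly need, Cct4 stood above Cct5 in both cell types and Cct2 above the main Cct6b contig in both, whereas the summed Cct6b contigs, at 509 and 397 CPM, lay above Cct2 in P/D spermatocytes (332 CPM) and below it in RS (429 CPM).

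Summed over all 15 contigs, CCT reads came to 7422, 8770 and 8213 CPM in P/D spermatocytes and 6162, 7115 and 6431 CPM in RS. The pooled mean tail of all CCT reads was 100, 99.2 and 97.7 nt and then 138, 135 and 142 nt. Neither quantity overlapped between cell types, and Tcp1 alone supplied 39.6% to 44.5% of the CCT reads in every sample. Cct8 supplied 3.62%, 4.11% and 3.72% of them in P/D spermatocytes and 2.29%, 2.11% and 2.23% in RS, and Cct2 4.27%, 3.88% and 4.12% and then 7.32%, 5.23% and 7.20%.

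**Figure D5:**
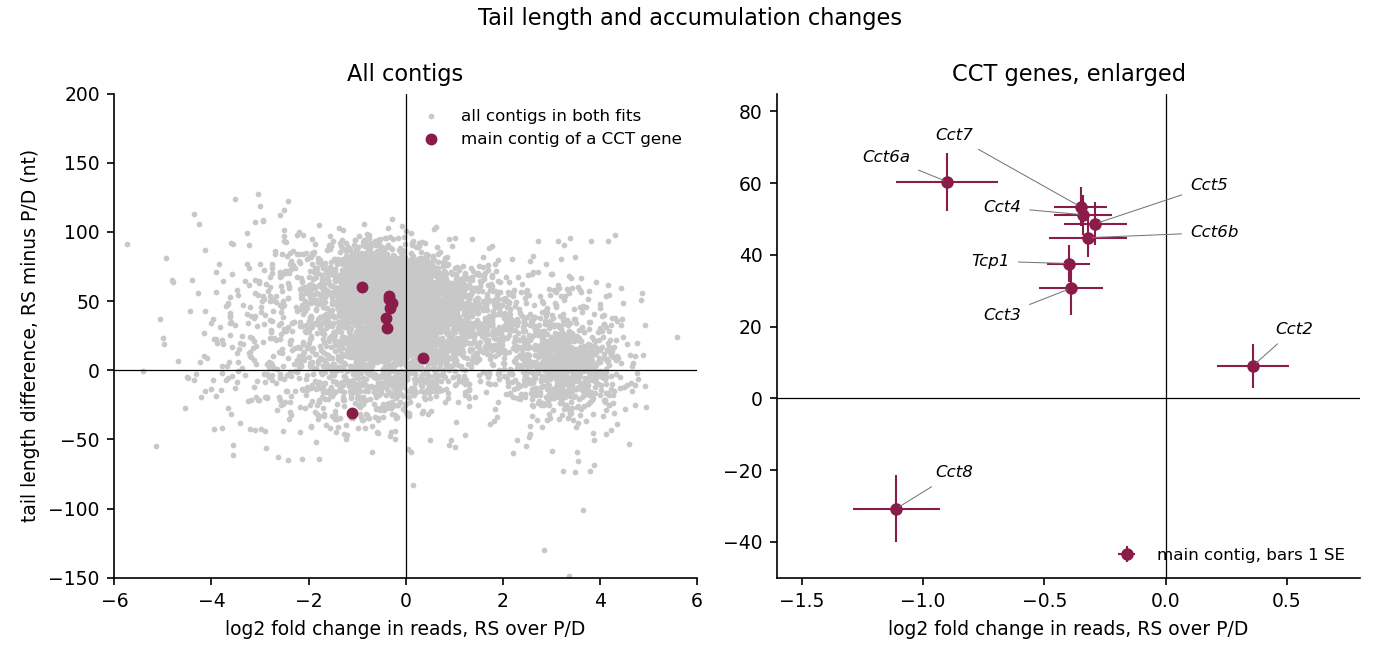
Tail length difference in nt (vertical axes) against log2 fold change in reads (horizontal axes), RS against P/D. At the left the 9 CCT main contigs stand among all 5916 contigs in both fits, and at the right they are enlarged with bars of 1 SE. Cct8 is both lower and shorter, and Cct2 is higher with little change in tail. Cct6a stands apart at longer tails and clearly lower reads. The rest lie together at longer tails and lower or similar reads.

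Tail and accumulation changes were then set side by side. Of the 9 main contigs, 5 were called both longer and lower (Tcp1, Cct3, Cct4, Cct6a and Cct7), as were 1164 of the 5916 contigs in both fits (19.7%). Cct8 was both shorter and lower, as were 52 of the 5916 contigs (0.879%). Over the 9 main contigs the tail difference and the log2 fold change had a Pearson r of 0.20 and a Spearman rho of 0.02, values that rest on Cct8. Without it r was -0.83 and rho -0.40. Cct2 (9.09 nt, log2 fold change 0.36) and Cct6a (60.4 nt, -0.90) then stood at opposite ends of both axes. That r rests largely on them, and no relation within the family is read from it. Over all 5916 contigs r was -0.29 and rho -0.26. All points share the same 6 libraries, and both measures come from the same reads.

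The zeta position allows a direct look at a paralog pair. The Cct6a and Cct6b main contigs share 76.2% of bases over 1216 aligned nt, and no other pair of members aligned over more than 355 nt. No read was listed on both genes. Cct6b supplied 77.9% of the pair's reads in the first P/D sample (exact binomial 95% interval 70.5% to 84.2%, 154 reads), 65.0% in the second (57.9% to 71.6%, 197 reads) and 73.5% in the third (66.5% to 79.7%, 185 reads). In RS it supplied 80.8% (73.5% to 86.9%, 146 reads), 79.3% (73.4% to 84.4%, 227 reads) and 76.5% (68.9% to 83.1%, 149 reads). Such intervals cover counting error only. The share was 72.1% ± 6.58 and 78.9% ± 2.19 (SD, n = 3 each), the groups overlapped, and the difference of 6.74 percentage points had a two-sided exact permutation p of 0.2, where 3 samples against 3 cannot go below 0.1.

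Cct6a was represented by a single contig, annotated as a processed transcript with no coding sequence and flagged for a sequence error, that spans chr5:129786998-129846371. It overlaps exons of Psph on the other strand by 452 nt, and Psph had 5, 17 and 7 reads in P/D spermatocytes and 8, 12 and 8 in RS. The 3′ region of Tcp1 overlaps Acat3 on the other strand, whose 2 contigs had 16 and 10 reads in all, and 11 reads of Tcp1 contigs were also listed on Mrpl18 and 1 on Katnal1. For Cct6b, 5 reads were also listed on Zfp830. Cct8 overlaps Usp16, a deubiquitinase gene on the other strand, by 192 nt. Usp16 had 6, 18 and 12 reads in P/D spermatocytes and 31, 59 and 37 in RS, opposite to Cct8. No read was listed on both Cct8 and Usp16. The deposited tables carry no strand, so reads of such partners cannot be told apart where they overlap.

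The Tcp1 contigs have 2 annotated 3′ end regions. The long end lies at 12925067 on chromosome 17 and the short ends at 12924556 and 12924562. A look at these contigs, made after their values were seen, gave a short-end share of 12.1%, 12.7% and 12.1% of Tcp1 reads in P/D spermatocytes and 11.9%, 25.8% and 18.2% in RS. The first RS sample lay at the P/D level and the second well above every P/D sample. The difference of 6.35 percentage points had a two-sided exact permutation p of 0.4. This share counts reads by the contig they were assigned to. The contigs overlap, and where each read ended was not examined. The read counts of the short-end contigs followed the same samples. With RS replicate 2 their log2 fold changes were 0.48 and 0.35 (SE 0.24 and 0.21, edgeR adjusted p = 0.074 and 0.15), and without it 0.13 and -0.14. The second Cct3 contig behaved alike, at 0.42 (SE 0.34, edgeR adjusted p = 0.28) and -0.14 without that sample.

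Cct8l1, a Cct8-like gene outside the family as defined here and chosen after its values were seen, had 0, 1 and 1 reads in P/D spermatocytes and 13, 27 and 17 in RS. Its contig aligned to that of Cct8 over 192 nt, with 59.4% identity.

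Genes around the chaperonin were followed through 10 lists with 70 gene symbols, of which 47 had a contig. They hold cofactors, known or possible substrates, other chaperonin genes and heat shock factors. Of 41 contigs tested for accumulation, 13 were higher and 13 lower in RS. Of 44 tested for tail length, 20 were longer and 1 was shorter. These counts stand beside 32.6%, 30.8%, 54.2% and 1.69% of all contigs tested.

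Prefoldin is the cochaperone that hands unfolded actin and tubulin to the ring. All 5 of its tested contigs were lower in RS (median log2 fold change -0.96), and 2 had longer tails. Pfdn1 had 79, 96 and 107 reads in P/D spermatocytes and 55, 72 and 69 in RS (log2 fold change -0.96, SE 0.17, edgeR adjusted p = 3.8e-06), with a tail longer by 76.3 nt (SE 6.94, limma adjusted p = 0.00050). Pfdn5 changed least in reads (-0.33, SE 0.12, edgeR adjusted p = 0.020), with a tail longer by 76.1 nt. The tested Pfdn2 contig fell from 21, 23 and 31 reads to 0, 3 and 4. Pfdn6 fell by 0.85 on the log2 scale (SE 0.19, edgeR adjusted p = 0.00013), and its tail difference of 17.1 nt was not called (limma adjusted p = 0.085).

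Phosducin-like proteins bind the ring and adjust its folding of clients. Pdcl2, their germ cell member, had 264, 397 and 330 reads and then 357, 622 and 429, with a log2 fold change of 0.06 (SE 0.10, edgeR adjusted p = 0.62) and a tail longer by 63.8 nt (SE 5.82, limma adjusted p = 0.00050). Txndc9 had a log2 fold change of 0.09 (SE 0.20, edgeR adjusted p = 0.72) and a tail longer by 59.3 nt. Only these 2 of the 4 listed genes had a contig. None of their 4 tested contigs was called in accumulation, and all 4 had longer tails.

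Tubulin folding cofactors take over tubulin after the ring, and 4 of their contigs were tested, with 2 higher, 1 lower and 2 longer. Tbcb, which binds alpha-tubulin, fell by 1.13 on the log2 scale (SE 0.20, edgeR adjusted p = 5.5e-06) with a tail longer by 46.9 nt. Tbcc and Arl2, a GTPase-activating cofactor and a small GTPase, rose by 0.78 and 1.2 on the log2 scale (edgeR adjusted p = 0.0012 and 0.0010). The R2TP and URI list, which assembles other large complexes, had contigs for 4 of its 9 symbols, among which Dnaaf10 and Wdr92 name the same gene. It had 7 contigs tested, with 2 higher, 1 lower and 3 longer. Uri1 went from 1, 3 and 2 reads to 32, 44 and 35.

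Among the known or possible substrates, actins and actin-like proteins had 9 contigs tested for accumulation, with 6 higher and 1 lower, and 6 of 11 with longer tails. Actg1, cytoplasmic gamma-actin, had 417, 585 and 493 reads and then 334, 442 and 321, a log2 fold change of -0.87 (SE 0.10, edgeR adjusted p = 5.4e-10). Among the actin-like contigs called higher in RS, Actl7a was at 9, 15 and 3 reads and then 158, 179 and 157, Actl9 at 35, 41 and 42 and then 116, 124 and 96, and Actrt2 at 8, 22 and 5 and then 105, 181 and 151.

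Tubulins had 6 contigs tested for accumulation, with 2 higher and 3 lower, and 2 of 7 with longer tails. Tuba3a and Tuba3b, nearly identical alpha-tubulin genes between which reads may be split with error, had log2 fold changes of -1.08 and -1.23 (SE 0.09 each, edgeR adjusted p = 4.3e-14 and 7e-16), and their tail differences of 9.35 and -6.70 nt were not called (limma adjusted p = 0.18 and 0.32). Tuba8 went from 1, 4 and 2 reads to 31, 39 and 42, and Tubb6 from 2, 1 and 0 reads to 32, 44 and 46.

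WD-repeat and kinase clients had 6 contigs tested, with 1 higher and 2 lower in reads and 1 longer and 1 shorter in tail. Cdc20 and Fzr1 both encode activators of the anaphase-promoting complex that are folded by the ring. Cdc20 had 54, 69 and 61 reads in P/D spermatocytes and 27, 44 and 24 in RS (log2 fold change -1.39, SE 0.20, edgeR adjusted p = 1.2e-07), and its tail was shorter, with a difference of -41.3 nt (SE 5.20, limma adjusted p = 0.0011). This was the contig with a shorter tail among all 10 lists, lower in reads as Cct8 was. Fzr1 rose by 0.71 on the log2 scale (SE 0.19, edgeR adjusted p = 0.0012) with a tail longer by 40.8 nt (SE 9.61, limma adjusted p = 0.012).

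The last lists were thinly covered and not tested. Bbs10, a chaperonin-like protein of cilium assembly, had 4, 1 and 4 reads and then 1, 6 and 6. Hspe1, the lid of the mitochondrial chaperonin, had 3, 5 and 2 and then 4, 4 and 8. Hsf2, a heat shock factor of germ cells, had 0, 1 and 1 and then 5, 14 and 4.

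The transcripts most like the CCT pattern were sought among 752 contigs of other named genes with at least 50 reads in every sample, the CCT contigs left out. Likeness was the distance to the median of the CCT main contigs, at 44.8 nt and a log2 fold change of -0.35, with each axis divided by its SD. The closest were Gpx4, a glutathione peroxidase gene (44.0 nt and -0.34, distance 0.0345), Aprt, adenine phosphoribosyltransferase (45.8 nt and -0.36, distance 0.0471), Rpl6, a ribosomal protein gene (42.8 nt and -0.34, distance 0.084), Psmd2, a proteasome subunit gene (42.3 nt and -0.35, distance 0.103), and Bag6, a chaperone gene (47.2 nt and -0.37, distance 0.108). On the same scale Cct6b lay at 0.0426 and Cct5 at 0.187, while Cct6a lay at 1.06, Cct2 at 1.84 and Cct8 at 3.36. The members set this centre, and its tail value is that of Cct6b, so their distances do not compare evenly with those of other genes. Cct6a and Cct8 did not reach 50 reads in every sample.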

How the data were processed

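Values came from 6 samples, 3 of P/D spermatocytes and 3 of RS. The authors used minimap2 to place basecalled, demultiplexed direct RNA reads on GENCODE transcripts (GRCm38), without a limit on strand, and Nanopolish to measure each tail. They deposited raw read counts per contig and a table with the tail length in nt of every read. The count equalled the number of tail reads in all 72684 contig and sample pairs.

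Here, mean tails and class percentages per sample were tested with limma 3.58.1 over annotated contigs that reached 10 reads in 2 or more replicates of either cell type, and counts with edgeR 4.0.16 (TMM, filterByExpr, glmQLFTest), or DESeq2 1.42.0 as an alternative. Benjamini-Hochberg adjustment ran over all contigs. CPM used TMM-scaled library sizes. Standard errors of log2 fold changes came from the quasi-likelihood statistic. Both tests were checked on simulated data with planted differences larger than most of those of the CCT contigs and with no effect of library. That check does not bear on smaller differences or on the confounding of library and cell type. Annotation was GENCODE vM21. Gene names follow the rule that all members are named by main contig and further contigs where they passed the tail filter, up to 4 genes per pathway list by lowest and highest log2 fold change, and the 5 nearest contigs. Members and lists were chosen with earlier results of these data known. Pools of 1 cell type came from separate mice, but both cell types came from the same mice, and p-values measure only the spread between these samples. The 3′ end window of 1 gene is not reported here.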

Additional observations from a re-analysis of the deposited data

How the results depend on the processing

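Longer tails were called for 11 CCT contigs under every alternative except 20 reads in every sample, which drops the second Cct3 contig and leaves 10, and the joining of each gene's contigs, which leaves 9 genes, of which 7 were longer. The Cct8 shortening gave 0 shorter contigs with no read minimum and 0 with the equal-variance test after adjustment, and 0 to 1 without 1 replicate. The share of tails of 120 to 210 nt was called higher for 11 contigs and lower for 0 throughout. Its Cct2 difference reversed to 2.15 with a class of 120 to 180 nt and to 0.406 with no upper bound, and ran from -5.94 to 2.74 without 1 replicate. Counts of contigs higher in accumulation were 0 with DESeq2, 0 with no count filter, 3 with 10 counts in every sample and 0 to 2 without 1 replicate. Counts of contigs lower were 2 with 10 counts in every sample and 4 to 7 without 1 replicate, where removing RS replicate 2 turned both the intron-retaining Tcp1 contig (-0.14 to 0.66) and the second Cct3 contig (-0.14 to 0.72). With DESeq2 the main contigs of Cct3 and Cct4 were not called lower. The summed CCT difference was -1922 to -1248 CPM and the pooled tail difference 37.8 to 41.0 nt without 1 replicate, against -1566 CPM and 39.4 nt, and 34.5 nt with equal weight for each gene. With equal weight the accumulation is a geometric mean, 632 CPM in P/D spermatocytes and 482 CPM in RS, and not a sum. The Cct6b share difference was 3.16 to 9.63 percentage points without 1 replicate and 8.41 with main contigs only. Apart from the calls named beside each gene, the cause of these moves was not tested.

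Both cell types came from the same mice, but no source used here says that pools of the same number did, so the replicate numbers were taken as names. Over 1827 contigs the deviations of same-numbered samples correlated at -0.0106, 0.0771 and 0.0157 for tails and 0.026, 0.24 and 0.0704 for reads, and not every sample correlated best with its own number. With the replicate block, 11 CCT contigs were longer and 1 shorter, 11 were higher and 0 lower in the share of long tails, and in accumulation 2 were higher and 7 lower, the added ones being the coding short-end Tcp1 contig and Cct5. Main contigs with few reads (28 to 69 per sample for Cct6a and 41 to 104 for Cct8) limit the precision of their tails.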
